A study of Mus musculus with 11 samples.

Results

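The libraries described here are the 3 that the labels assign to nontransgenic (nTg) mice, out of 11 in the series, and they were taken by that genotype label alone. Each came from the dissected lumbar part of the spinal cord of a C57BL/6 mouse at 10 months of age. The other libraries of the series came from MFN2-R94Q mice (3 libraries) and MFN2-R94Q:MFN1 mice (5 libraries), and they enter nothing below. The nTg mice were the controls of a study of mitofusins, the mitochondrial fusion proteins. The labels give no sex, litter or batch for the 3 mice. The sample is whole tissue, so grey matter, white matter, blood vessels and any attached membranes are mixed in it, and fewer cells of a type cannot be told apart from less RNA per cell.

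The lumbar cord holds the sensory neurons of the dorsal horn, a large population of local interneurons, and the motor neurons whose axons run to the hind limb. The white matter around them is made of long myelinated axons, so oligodendrocytes, which make myelin, are a large part of the tissue. Position along the body axis is recorded in neurons by the Hox genes, transcription factors that lie in 4 clusters and are switched on in order from the front of each cluster to its back.

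The unit throughout is RPKM, the reads of a gene divided by the length of its gene model and scaled to the size of the library. It is a level per length, so levels of different genes can be set side by side, although genes whose reads match several places remain uncertain. The 3 libraries held an estimated 54.02, 43.54 and 34.64 M reads in replicates 1, 2 and 3. On a transcript of 1 kb, 3 reads were worth 0.0555 to 0.0866 RPKM, and levels under that are not told apart from 0 at this depth. All values below are means ± SD over the 3 mice unless a value per library is given, and no test was made, because a single group has nothing to be compared with and an exact paired test over 3 libraries cannot go below p = 0.25.

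Of 20888 gene rows, 12887 (61.7%) had a mean of at least 1 RPKM, the level called expressed below. A mean of at least 10 RPKM was reached by 5877 rows, at least 100 by 484 and at least 1000 by 8. The 1158 rows listed at 0 in all 3 libraries were the other end of the range. Among rows matched to RefSeq, 11960 protein-coding genes and 328 long noncoding RNA genes reached 1 RPKM. Within these rows RNA was spread over many genes. The 10 most abundant took 4.55% ± 0.12 of the summed RPKM, the 100 most abundant 18.0% ± 0.27, and the 1000 most abundant 51.7% ± 0.28. These shares and the ranks below hold for the deposited gene rows only. The 25 highest rows included no mitochondrially encoded gene.

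**Figure D1:**
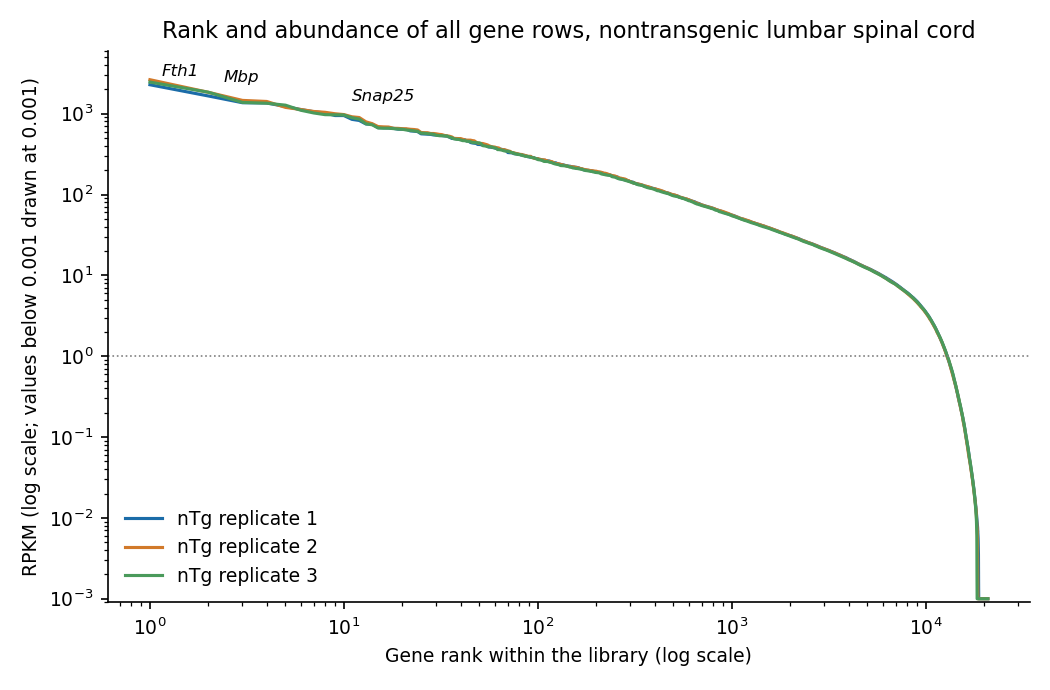
RPKM (log scale) against the rank of each gene row within its library (log scale), one line for each of the 3 nTg libraries, with the dotted line at 1 RPKM. The lines lie over each other along most of their length, and 12887 rows had a mean at or above the dotted line.

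The most abundant gene was Fth1, the heavy chain of ferritin, which stores iron. It stood at 2279, 2631 and 2456 RPKM in replicates 1, 2 and 3 (2456 ± 176) and lies at chr19:9980600-9985111 on GRCm38. Mbp, the myelin basic protein that compacts the myelin sheath, followed at 1655, 1838 and 1842 RPKM (1779 ± 107). Its lowest library was still above the highest library of the gene ranked next. That gene was Gapdh, a glycolytic enzyme, at 1365, 1459 and 1346 RPKM.

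Below these were Ckb, the brain creatine kinase (1231 ± 39.6 RPKM), Ppia, a peptidyl-prolyl isomerase (1117 ± 13.5), Hspa8, the constitutive Hsc70 chaperone (1028 ± 56.0), and Sparcl1, a matrix protein secreted by astrocytes (1026 ± 11.5). Genes of neurons near the top were Nefl, the light neurofilament chain (972 ± 24.9 RPKM), and Snap25, a component of the vesicle fusion machinery (963 ± 14.2). Cst3, the secreted protease inhibitor cystatin C, had 868 ± 24.7 RPKM. Apoe, the lipid carrier of glia, had 745, 752 and 749 RPKM, the smallest relative spread of the 25 most abundant genes (CV 0.476%).

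Others of the 25 most abundant genes served protein synthesis, the cytoskeleton, energy metabolism and membranes. They were Eef1a1 (753 ± 34.0 RPKM), Pkm (673 ± 11.2), Tuba1b (673 ± 17.0), Tuba1a (672 ± 11.3), Atp1b1 (651 ± 9.72), Atp5b (640 ± 11.9), Scd2 (637 ± 26.5), Calm2 (635 ± 11.8), Nefm (634 ± 19.9), Rplp1 (633 ± 27.6), Aldoa (613 ± 14.2) and Psap (573 ± 9.12). Scd2 is the main stearoyl-CoA desaturase of brain and myelin, and Psap is the precursor of the saposins of the lysosome. Of the 24 steps between neighbours in this order, 10 were separate, meaning the same order in all 3 libraries and means further apart than the sum of their SDs. Fth1, Mbp and Gapdh were separate from each other, whereas no step between neighbours from Pkm down to Aldoa exceeded their spread.

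Lists of marker genes were used to describe the cell types, and every listed gene with a row was counted, also at 0. Of all rows 61.7% were expressed. A count of expressed members near that share, in these lists or in the regional and Hox lists below, does not by itself speak for a cell type or region. A list's level depends on how strongly each marker is expressed in its cell as well as on the number of cells, so levels of different lists do not rank cell numbers. All 12 general neuronal markers were expressed, with a median of 269 RPKM over the list, from Elavl4, an RNA-binding protein (17.9), to Nefl. All 15 oligodendrocyte markers were expressed, with a median of 96.5 RPKM, and this list alone took 1.71% ± 0.07 of the summed RPKM. Beside Mbp, Trf, transferrin, had 543 RPKM. Mag, an adhesion protein of the innermost myelin layer, had 260, 279 and 270 RPKM, with replicate 1 lowest for it as for 9 of the 15 oligodendrocyte markers.

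**Figure D2:**
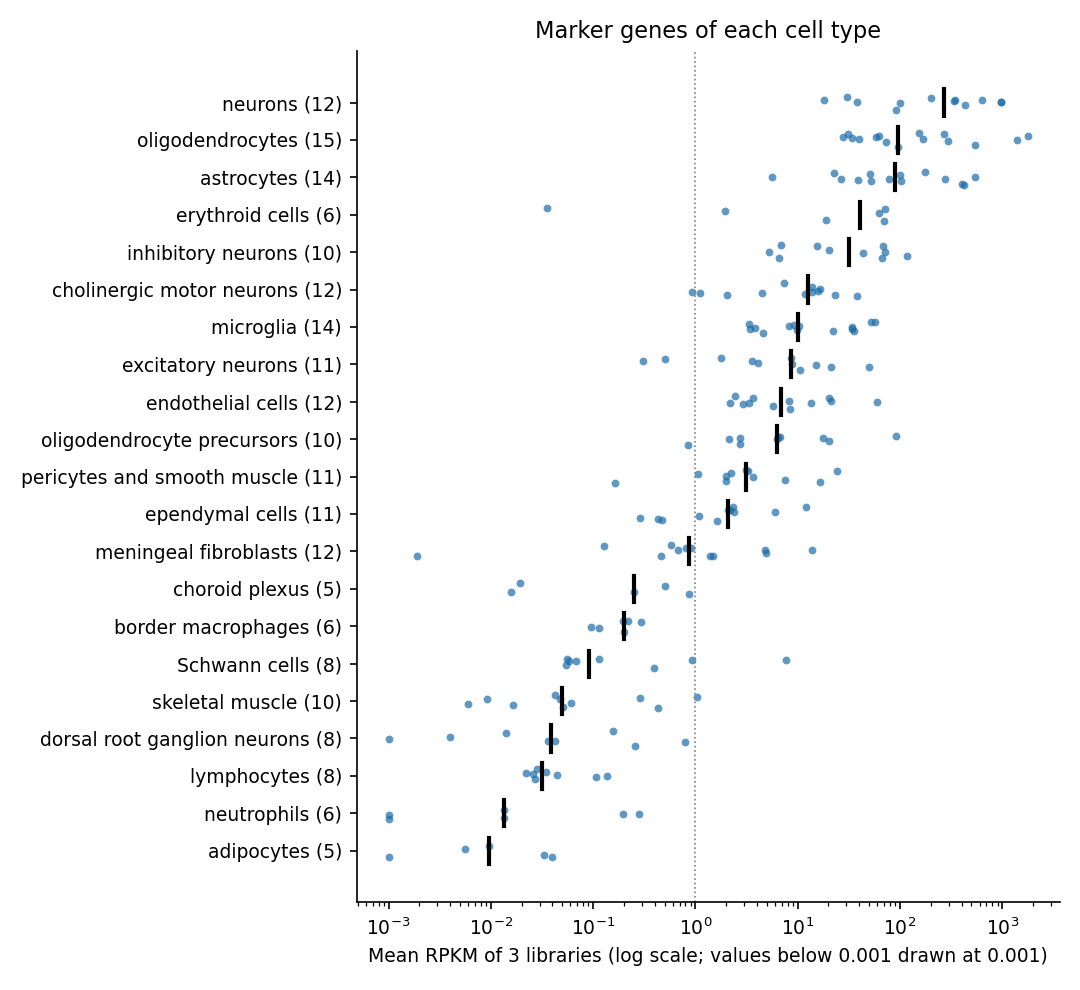
Mean RPKM over the 3 nTg libraries (log scale) of every marker gene, one row for each cell type with its number of genes, points spread at random in height. The black bar is the list's median and the dotted line is 1 RPKM. The medians of the lists for neurons, astrocytes, oligodendrocytes and their precursors, and microglia lie to the right of the line, although some of these lists have members to its left, and lists of blood leukocytes, muscle, fat and ganglion neurons have medians under 0.3 RPKM.

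All 14 astrocyte markers were expressed (median 88.8 RPKM). The highest were Aldoc, an aldolase of astrocytes (546), Atp1b2, a sodium pump subunit (423), and S100b, a calcium-binding protein (402). Gfap, the intermediate filament of astrocytes, stood at 279, 256 and 287 RPKM, with replicate 2 lowest. Oligodendrocyte precursor markers had a lower median, 6.34 RPKM, and 9 of 10 were expressed, led by the transcription factor Olig1 (91.3), which mature oligodendrocytes also express. Pdgfra, the growth factor receptor that defines precursors, had 6.23 RPKM.

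All 14 microglial markers were expressed, with a median of 10.0 RPKM. Ctss, a lysosomal protease (56.5), and C1qc, a complement subunit (35.4), were among the highest. Tmem119, which marks resident microglia, stood at 8.27, 8.12 and 8.47 RPKM. Markers of macrophages at the borders of the nervous system stayed under 0.3 RPKM, from Pf4 (0.293) to Lyve1 (0.0949), and none of the 6 was expressed. Markers of lymphocytes and neutrophils had lower medians, 0.0315 and 0.0135 RPKM, with 0 of 8 and 0 of 6 expressed. Cd79a of B cells was the highest lymphocyte gene at 0.136 RPKM, Cd3e of T cells had 0.0259, and Camp and Elane of neutrophils were at 0 in every library. S100a9 was the highest neutrophil gene at 0.279 RPKM, and the neutrophil list summed to 0.329, 0.954 and 0.227 RPKM, highest in replicate 2.

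Vessels were represented by endothelial markers (12 of 12 expressed, median 6.93 RPKM) and by markers of pericytes and smooth muscle (10 of 11 expressed, median 3.10). Slc2a1, the glucose transporter of the blood-brain barrier, had 59.8 RPKM, and Cldn5, its tight-junction claudin, had 16.7, 20.8 and 23.3 RPKM. Rgs5 of pericytes had 24.97, 21.55 and 25.70 RPKM. Haemoglobin transcripts of red blood cells were also present: Hba-a1 stood at 65.6, 83.4 and 63.5 RPKM and Hbb-bs at 73.6, 78.6 and 59.2. Replicate 2 was highest and replicate 3 lowest for all 5 expressed erythroid genes.

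Of 11 markers of ependymal cells, which line the central canal, 8 were expressed, beside 61.7% of all rows. The ciliary transcription factor Foxj1 led at 12.0, 11.6 and 12.9 RPKM. Of the 12 meningeal fibroblast markers 5 were expressed, with Igfbp2 (13.7), the matrix proteoglycan Dcn (4.95) and the collagen Col1a2 (4.82) highest. Igfbp2 and Dcn are not exclusive to meninges. None of the 5 choroid plexus genes was expressed, and Ttr, the transthyretin that choroid plexus makes in large amounts, had 0.0192 RPKM.

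Tissues next to the cord left little signal. Of the 8 Schwann cell genes 1 was expressed, Drp2 at 7.55, 8.18 and 7.19 RPKM. The list had a median of 0.0902 RPKM and summed to 9.30 RPKM. Pmp2, a peripheral myelin protein, had 0.0575 RPKM, close to the list's lowest value of 0.0549. None of the 8 genes of dorsal root ganglion neurons was expressed. P2rx3, an ATP-gated channel, was the highest at 0.787 RPKM, Scn10a, the sodium channel of pain fibres, had 0.00401, and Mrgprd was at 0. Of 10 skeletal muscle genes only Mylpf, a myosin light chain, reached 1 RPKM (1.03), and none of the 5 measured adipocyte genes did, with Lep at 0.

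Transmitter genes separated the neurons by class. Slc32a1, the vesicular transporter that loads GABA and glycine, stood at 71.8, 70.5 and 71.2 RPKM. Slc17a6, the vesicular glutamate transporter VGLUT2, stood at 50.5, 49.4 and 48.4 RPKM. The inhibitory transporter was higher in each library, 1.44 ± 0.028 times the glutamate transporter. Among other inhibitory genes Slc6a5, the neuronal glycine transporter, had 69.1 RPKM, Pvalb 66.7 and Gad1, a GABA-synthesising enzyme, 43.9. All 10 inhibitory markers and 9 of 11 excitatory markers were expressed, the 2 exceptions being the other vesicular glutamate transporters.

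Of 12 markers of cholinergic motor neurons 11 were expressed (median 12.8 RPKM). Prph, the peripherin filament of motor neurons, stood at 37.9, 37.9 and 38.8 RPKM. Slc18a3, which loads acetylcholine into vesicles, had 22.5, 22.6 and 23.8 RPKM, and Chat, which makes acetylcholine, had 11.7, 11.9 and 11.5. These genes varied little between mice. The developmental factors Mnx1 (1.11) and Isl1 (0.917) lay near 1 RPKM. The catecholamine enzyme Th had 3.36, 3.12 and 2.15 RPKM.

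Peptide genes mark small classes of spinal neurons, many of them in the dorsal horn. Of 31 precursors of peptides and granins 26 were expressed. The granins Chga (174 ± 4.84 RPKM) and Scg2 (117 ± 8.06) led, followed by Penk, the enkephalin precursor, at 115, 104 and 110 RPKM and Sst, somatostatin, at 103, 98.6 and 95.8. Tac2, the neurokinin B precursor, had 33.9 RPKM, above Cck (21.2), Npy (15.6) and Tac1, the substance P precursor (15.0). Nts, neurotensin, was the most even of all genes at 10 RPKM or more. It had 10.6 RPKM in each library, and its highest library was 1.001 times the lowest. Such an extreme, picked from many genes over 3 libraries, does not measure how stable the gene is. Pomc (0.584), Crh (0.475), Ucn (0.337), Gnrh1 (0.328) and Cort (0.118) were the 5 precursors under 1 RPKM.

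Hox genes placed the tissue on the body axis. Of 39 Hox genes 30 were expressed, and their sum was 351 ± 9.24 RPKM. Hoxb8 was highest at 51.1, 51.4 and 55.8 RPKM. Hoxc10, a gene of lumbar motor neurons, followed at 32.9, 31.2 and 31.6 RPKM, and then came Hoxb9 (28.8), Hoxb6 (26.5) and Hoxd8 (20.6). Summed over the clusters, paralog group 8 was highest at 87.5 ± 3.19 RPKM. Group 9 had 58.7 ± 1.24 and group 10 had 56.8 ± 2.09, a difference smaller than the sum of their SDs. Beyond group 10 the level dropped: 5.56 ± 1.098 RPKM in group 11, 0.296 ± 0.22 in group 12 and 0.0744 ± 0.031 in group 13.

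Expression ended at paralog group 11 in HoxA, HoxC and HoxD, and at group 9 in HoxB. In HoxA (chr6:52155367-52260880) and HoxD (chr2:74668225-74765142) the last expressed paralogs were Hoxa11 (1.91 RPKM) and Hoxd11 (1.98). In HoxB (chr11:96194316-96368254), which has no members between groups 9 and 13, the last was Hoxb9, and this cluster held the most signal, 154 ± 6.35 RPKM. In HoxC (chr15:102921131-103036856) Hoxc10 was 6.76 ± 0.52 times Hoxc9, and the last expressed gene was Hoxc11. That gene stood at 2.16, 1.93 and 0.914 RPKM, lowest in replicate 3. Hoxc12, the highest gene of group 12, stood at 0.439, 0.354 and 0.0342 RPKM, so in replicate 3 it fell under the value of 3 reads on 1 kb. Hoxd10 had 13.7, 12.4 and 11.2 RPKM and Hoxd11 2.40, 1.85 and 1.68, with the same library lowest, whereas Hoxb8 was highest in replicate 3. The sums of group 10 (59.2, 56.0 and 55.2 RPKM) and group 11 (6.63, 5.60 and 4.44) also fell from replicate 1 to replicate 3. Those of groups 2 to 9 were each highest in replicate 3. Single genes of groups 10 and 11 were less uniform. Hoxa10 had the same order but differed little, at 12.51, 12.49 and 12.44 RPKM. Hoxa11 (2.07, 1.82 and 1.85) and Hoxc10 (32.9, 31.2 and 31.6) were lowest in replicate 2. Whether the dissected segments differed between mice was not tested.

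**Figure D3:**
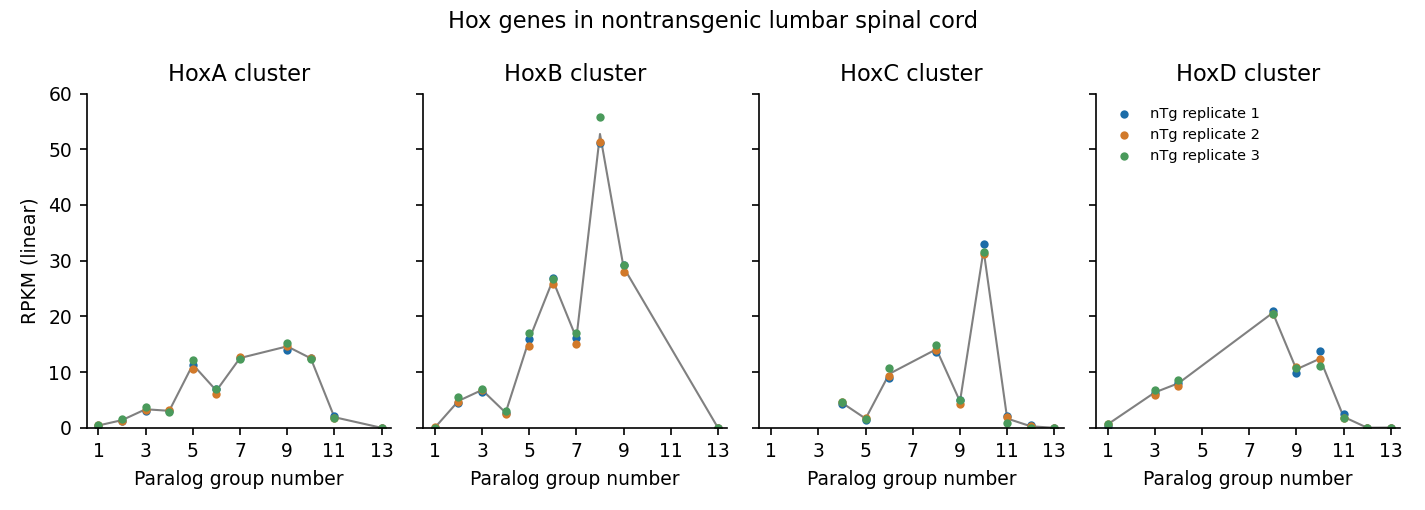
RPKM (linear scale) of each Hox gene against its paralog group number, one panel for each cluster, coloured points for the 3 nTg libraries and a grey line through their means. HoxB peaks at Hoxb8 (52.7 RPKM) and HoxC at Hoxc10 (31.9 RPKM), and every cluster is near 0 from group 12 onward.

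At the front of the clusters, Hoxa2 (1.39 RPKM), Hoxb2 (4.83), Hoxa3 (3.34), Hoxb3 (6.80) and Hoxd3 (6.36) were expressed, and no gene of group 1 was, the highest being Hoxd1 at 0.623 RPKM. The middle of the clusters was filled by Hoxb5 (15.9), Hoxa5 (11.4), Hoxb7 (16.1), Hoxa7 (12.5), Hoxc6 (9.68), Hoxc8 (14.1), Hoxa9 (14.6), Hoxd9 (10.5) and Hoxa10 (12.5). The other expressed members were Hoxa4 (3.05), Hoxb4 (2.72), Hoxc4 (4.48), Hoxd4 (8.005), Hoxc5 (1.65), Hoxa6 (6.67) and Hoxc9 (4.74).

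Transcription factors that pattern the embryonic cord were still measurable at 10 months. In whole tissue the cells that express them, neurons or others, were not told apart. Of 16 factors of dorsal neurons 15 were expressed, the highest being Ebf1 (8.53 RPKM), Zic1 (8.23) and Pax2 (6.91), which is a factor of inhibitory interneurons. Lbx1, which sets the fate of dorsal horn neurons, stood at 5.29, 4.22 and 4.54 RPKM. Of 16 factors of ventral neurons 6 were expressed, beside 61.7% of all rows. Among these 6 were Foxp1 of limb motor neurons (2.78) and Isl2 of motor neurons (1.49). Of 12 genes of the ventricular zone 10 were expressed, among them Olig2 (17.8), Nkx6-2 (13.2) and Dbx2 (9.43). Olig2 and Nkx6-2 are also genes of the oligodendrocyte lineage. Shh, the ventral patterning signal, had 2.02, 2.07 and 2.07 RPKM.

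Genes of other parts of the nervous system were mostly under 1 RPKM. Of 12 forebrain genes 2 were expressed, Rgs9 (2.59) and Neurod6 (1.31), and the forebrain factor Emx2 was at 0 in all 3 libraries. The cerebellar list had 2 of 8 expressed, Gdf10 (1.73) and Itpka (1.23), with Gabra6 of granule cells at 0. Otp (1.58) alone of 8 hypothalamic genes and Th alone of 9 midbrain and monoamine genes were expressed. Of 6 hindbrain genes 2 were expressed, Mab21l2 (8.70) and Hoxa2, while Tbx20 was at 0.

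Many proteins of the nervous system come in families of similar genes, and the tissue's choice among them was read as each member's share of the family's summed RPKM. In 65 families the leading member took over 90% in 13, between 50 and 90% in 34 and under 50% in 18, with a median of 63.6%. These shares were steady between mice: the largest SD of a leading share was 1.80 percentage points. The leading and the second member were separate by the rule above in 64 families, the exception being the alpha tubulins.

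Sequences matter for such a choice, because reads can be assigned to one member only where members differ. Calm2 and Calm3 are shown because they encode one protein and differ at scattered positions: the first 90 coding bases from GENCODE M21 on GRCm38, with capitals at the positions where the printed sequences differ.
Calm2 (chr17:87433412-87446935, minus strand): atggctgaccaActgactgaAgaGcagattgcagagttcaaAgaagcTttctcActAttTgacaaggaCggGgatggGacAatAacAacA
Calm3 (chr7:16915379-16924114, minus strand): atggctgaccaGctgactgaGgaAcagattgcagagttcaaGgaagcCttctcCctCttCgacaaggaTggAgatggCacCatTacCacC

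Calm2 and Calm3 encode one and the same calcium sensor, calmodulin, and yet their coding sequences differed at 15 of these 90 positions. Over all 447 coding bases they were 82.6% identical, with no identical run longer than 17 bases. Both were abundant: Calm2 stood at 643, 641 and 622 RPKM and Calm3 at 555, 584 and 562. Calm2 was higher in each library, with shares of the calmodulin family of 38.2% for Calm2 and 34.1% for Calm3.

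Tuba1a and Tuba1b, whose proteins are nearly alike, are the opposite case. Their 1353 coding bases were 98.3% identical, with an identical run of 281 bases. Tuba1b stood at 666, 693 and 661 RPKM and Tuba1a at 671, 683 and 661, a ratio of 1.002 ± 0.011, and they were not told apart. Actb and Actg1, the cytoplasmic actins, lay between these cases with 88.6% identity. Actg1 was 1.28 ± 0.038 times Actb.

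**Figure D4:**
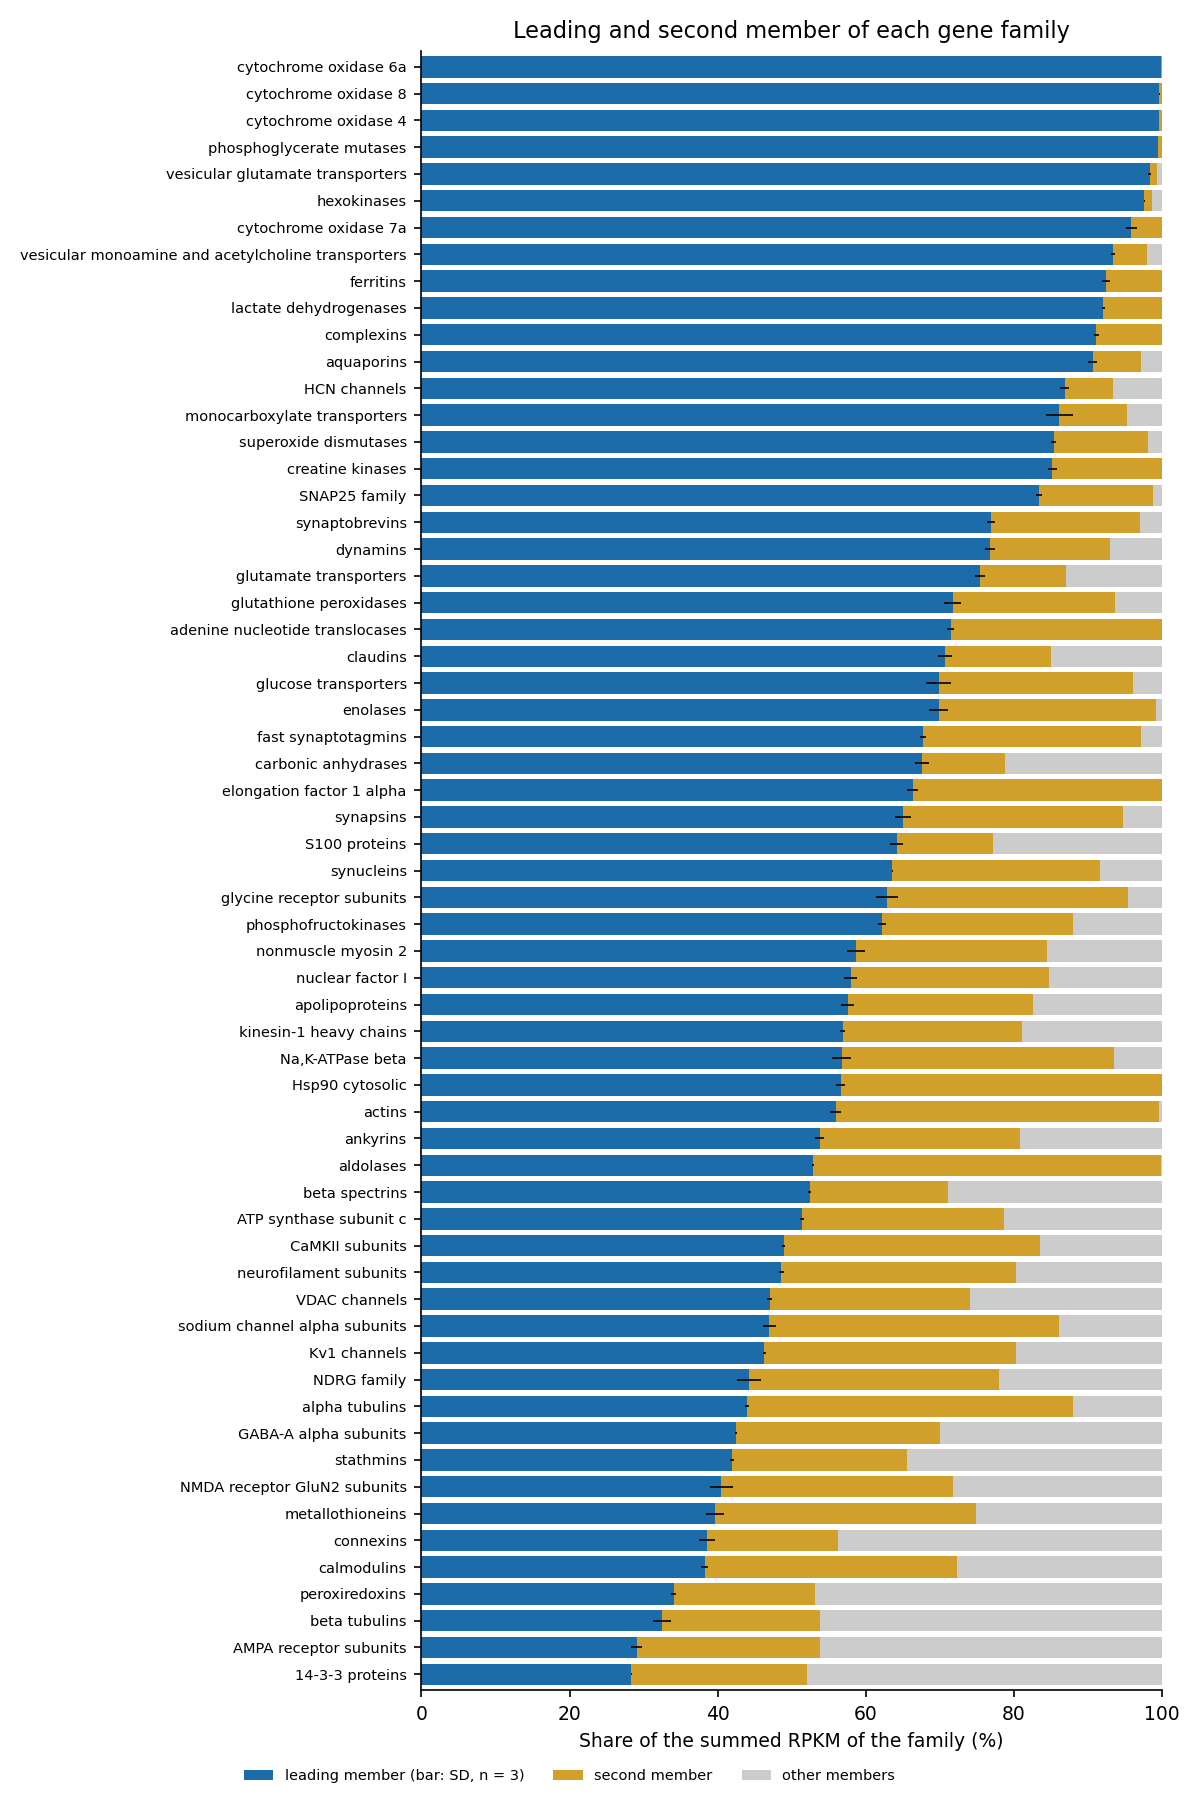
Share of the family's summed RPKM (%) taken by the leading member (blue, with the SD over the 3 nTg libraries as a bar), the second member (gold) and the others (grey), for 61 of the families, named at the left. Leading shares run from 99.9% for Cox6a1 down to 28.3% for Ywhag.

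At the synapse, several leading members were those known from fast neurons of the caudal nervous system. Slc17a6 took 98.4% ± 0.19 of the vesicular glutamate transporters and was 99.0 ± 10.3 times Slc17a7, the VGLUT1 of cerebral cortex, which stood at 0.466, 0.492 and 0.549 RPKM. Vamp1, the synaptobrevin of motor terminals, stood at 477, 493 and 482 RPKM, against 120, 132 and 129 for Vamp2, the usual synaptobrevin of forebrain, a ratio of 3.81 ± 0.13. Syt2, the fast calcium sensor of hindbrain and spinal synapses, was 2.30 ± 0.044 times Syt1. Cplx1 was 10.3 ± 0.45 times Cplx2, its partner among the complexins that clamp vesicle fusion. For these 4 pairs the ranges over the libraries did not overlap.

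Receptor families were shared more evenly. Gabra3 led the alpha subunits of the GABA-A receptor with 42.5%. Gabra5 was next with 27.5%. Glycine receptors, which carry much of spinal inhibition, were led by the beta subunit Glrb (62.9%), followed by Glra1 (32.6%), the adult alpha subunit, at 55.5, 54.0 and 47.4 RPKM. Glra1 was 15.7 ± 0.14 times Glra2, the fetal alpha subunit. AMPA receptor subunits were the most even of the receptor families described, with 29.1% for Gria4 and 24.8% for Gria2. The NMDA receptor family summed to 16.3 RPKM over its GluN2 subunits, with Grin2d at 40.5% and Grin2c at 31.2%.

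Channels and signalling kinases also had their own profile. Scn1a (47.0%) and Scn8a (39.1%), sodium channels of fast-firing neurons and nodes of Ranvier, led the sodium channels, and Scn1a was 4.79 ± 0.22 times Scn2a1. Hcn2 took 86.9% of the pacemaker channels. Kcna1 (46.3%) and Kcna2 (34.0%), which flank the nodes of myelinated axons, led the Kv1 potassium channels. Camk2g led the CaMKII subunits at 124, 127 and 124 RPKM, 4.67 ± 0.14 times Camk2a, the leading subunit of forebrain, at 26.6, 26.4 and 27.3.

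Among enzymes of energy metabolism, forms known from heart and skeletal muscle were low in some families and led in others. Cox6a1 took 99.9% of its family, Cox4i1 99.6% and Cox8a 99.7%, where Cox6a2 and Cox8b are the muscle forms. Pgam1 took 99.5% against Pgam2 of muscle. Hk1 took 97.6% of the hexokinases. In contrast, Pfkm, the muscle phosphofructokinase, took 62.2% of its family, Slc25a4, the adenine nucleotide translocase of heart and muscle, 71.5%, and Aldoa, the muscle aldolase, 52.9%. Ldhb, the heart form of lactate dehydrogenase, was 11.7 ± 0.35 times Ldha, at 481, 492 and 464 RPKM against 42.2, 42.4 and 38.4. Eno2, the neuronal enolase, was 2.38 ± 0.14 times Eno1, and Eef1a1 was 1.97 ± 0.067 times Eef1a2, the elongation factor of neurons and muscle.

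Aqp4, Slc1a2, Cldn11 and Gja1, genes of glia, led some of the other families. Aqp4, the water channel of astrocyte endfeet, took 90.7% of the aquaporins, and Slc1a2, the astrocyte glutamate transporter GLT-1, took 75.4% of its family at 171, 177 and 173 RPKM. Cldn11, the claudin of myelin, took 70.7% of the claudins, and Gja1, the astrocyte connexin, 38.6% of the connexins. Slc16a1, a lactate carrier, took 86.2% of the monocarboxylate transporters. Sncb led the synucleins with 63.6%. Nefl took 48.6% of the neurofilament subunits and Nefm 31.7%. Mt1 took 39.6% of the metallothioneins and Mt3, the neural form, 35.3%.

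The 3 mice were much alike. Between libraries the Pearson correlation of log2(RPKM + 0.5) across genes was 0.9966 to 0.9972, a value over genes, which are not independent replicates. Over the 12887 expressed genes the median SD of log2(RPKM + 0.5) was 0.05 and the median CV 4.11%. The spread was smaller at higher levels, from a median CV of 9.44% between 1 and 2 RPKM to 2.32% at 100 RPKM or more. In 202 genes (1.57%) the highest library was at least 1.5 times the lowest, and in 35 at least 2 times.

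Among genes at 5 RPKM or more, the one that varied most was Rn45s, the precursor of ribosomal RNA, at 11.5, 18.9 and 49.7 RPKM, 4.34-fold from lowest to highest. Ribosomal RNA is not polyadenylated, and these libraries were selected for poly(A) RNA. Replicate 3, the library with the fewest reads, was highest, and the part of depth or RNA quality in this was not tested. Sgk1, a kinase induced by glucocorticoids, was next at 54.5, 16.4 and 27.7 RPKM, highest in replicate 1 by a wide margin. The others, from 2.75-fold down to 1.79-fold, were Tgoln2, 1700063D05Rik, Pglyrp1, Plekhf1, Arl4d, Tmem38b, Sdf2l1, Mmp14, Ccdc117 and Erdr1. Beside Nts the most even genes were Bex2, Tsg101, Ank, Stmn3, Txlna, Znrf1 and Rbbp4, with Stmn3 at 358, 359 and 359 RPKM. They too were picked as the extremes of many genes, so their small spread does not measure how stable each gene is.

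Some genes of a list deviated together in one mouse. The background for such counts is the share of 12873 expressed genes whose highest library was replicate 1 (40.7%), 2 (33.2%) or 3 (26.2%) and whose lowest was replicate 1 (24.0%), 2 (35.4%) or 3 (40.6%). The 15 chaperones and folding enzymes of the endoplasmic reticulum were highest in replicate 2 for 14 and lowest in replicate 3 for all 15. Hspa5, the BiP chaperone, stood at 110, 127 and 81.0 RPKM, and Calr, calreticulin, at 123, 151 and 111. Of 18 glucocorticoid targets 15 were highest in replicate 1, among them Fkbp5 at 8.54, 7.41 and 6.92 RPKM and Zbtb16 at 5.48, 4.27 and 2.84. Of 14 expressed immediate early genes, which neurons switch on with activity, 10 were lowest in replicate 2, Fos at 11.3, 7.15 and 9.41 RPKM being one. These lists were chosen after these values were seen. Their counts beside the background are therefore a description of the libraries and no evidence that the lists deviate more than other genes.

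The deviations were small. The median over the list in replicates 1, 2 and 3 was 0.02, 0.20 and -0.19 on the log2 scale for the endoplasmic reticulum list, 0.19, -0.03 and -0.12 for glucocorticoid targets and 0.06, -0.23 and 0.05 for immediate early genes. Over all expressed genes it was 0.01, 0.00 and -0.01. Markers of several cell types moved with the same libraries: the erythroid list stood at -0.04, 0.19 and -0.16, and 8 of 10 expressed markers of pericytes and smooth muscle were highest in replicate 2, as were 11 of 15 oligodendrocyte markers. Replicate 1, the library high for glucocorticoid targets, was lowest for 8 of 12 endothelial markers, 7 of 10 of pericytes and smooth muscle, 9 of 14 of microglia and 9 of 15 of oligodendrocytes. The median deviations there were -0.09, -0.11, -0.07 and -0.05. The part of cell content in the differences between libraries was not tested. The 18 clock genes had medians within 0.02 of 0 in each library, and Dbp, an output gene of the clock, stood at 14.8, 14.9 and 15.9 RPKM. A median near 0 can also arise where members move in opposite directions. Replicates 1, 2 and 3 were highest for 8, 3 and 7 clock genes and lowest for 6, 9 and 3. Whether the mice differed in clock state was not tested.

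**Figure D5:**
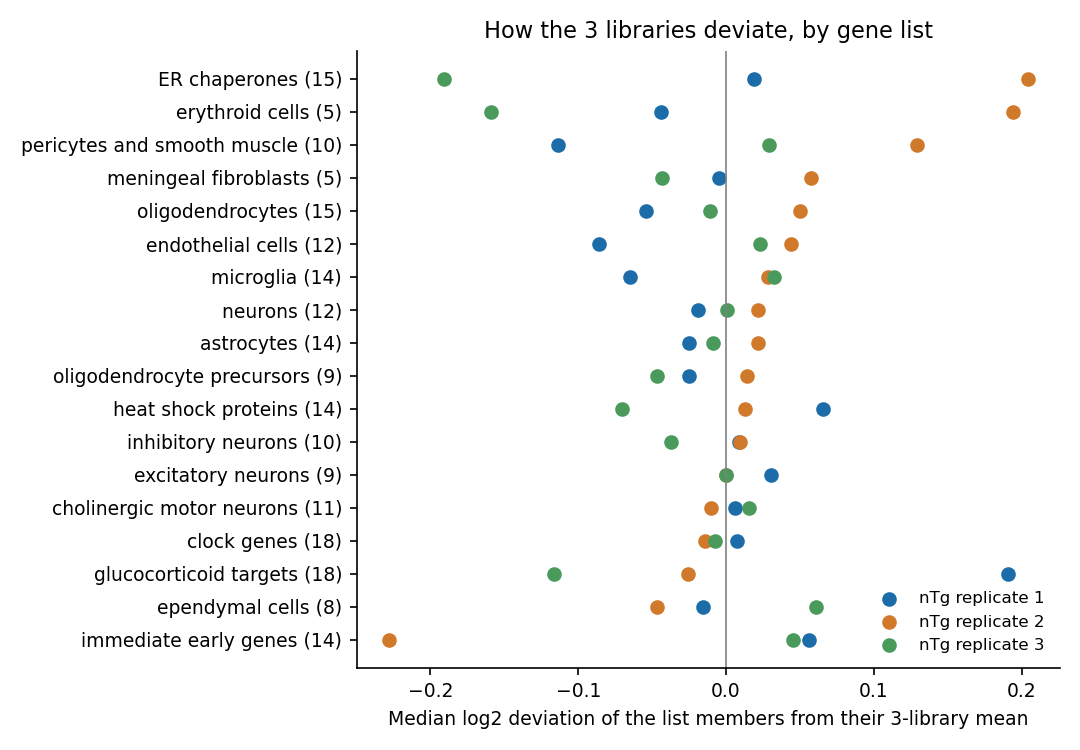
Median log2 deviation of each list's expressed genes from their mean over the 3 nTg libraries, one point for each library, with the number of genes beside each list. The lists of endoplasmic reticulum chaperones, erythroid cells, glucocorticoid targets and immediate early genes are spread widest, from -0.23 to 0.20, and the neuronal lists stay close to 0.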

How the data were processed

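Polyadenylated RNA was sequenced from stranded libraries, per the labels' protocols. The table that the authors deposited gives RPKM by gene symbol in 20888 rows. Per the submitters' processing notes, build mm10 was used with TopHat and Partek 7.17.0918. Annotation, strand setting and the handling of reads with several matches are not given in the sources used, and rare values such as 1.88e-14 RPKM for Oxt in replicate 3 are far under 1 read. Hbb-b2 and Hbb-bt carry identical values, and 25 rows whose names a spreadsheet had turned into dates are not named. Mitochondrially encoded genes are not analysed here.

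Depth was recovered from genes under 160 bases, whose low values are whole multiples of 1 read: 94.4 to 96.7% of them came out within 0.02 of a whole number. Counting error at 1 RPKM on 1 kb was 13.6 to 17.0%. Means, SDs, shares and SDs of log2(RPKM + 0.5) were computed with pandas 2.3.3 and numpy 2.4.6 in Python 3.11.15, tested on simulated data, and drawn with matplotlib 3.10.9. Names and positions came from RefSeq on GRCm38.p6, coding sequences from GENCODE M21. Of 637 listed symbols 627 had a row, and the other 10 were not analysed here. Some genes and sequences that the rule below selects are not reported here.

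The genes named are the 25 most abundant (predicted genes and duplicate rows left out), the 3 highest of each list, members that speak to absence, expressed Hox genes, leading family members, the 12 most variable genes at 5 RPKM or more and the 8 most even at 10 or more, with a few more chosen for their known role after their values were seen. The libraries and lists were chosen with earlier results of these data known, and the lists of chaperones, glucocorticoid targets, immediate early and clock genes after these values were seen. Nothing says whether the samples share a litter, so the SDs measure the spread between these samples. Alternatives left out each replicate, rescaled the libraries, filtered low values and changed the pseudocount.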

Additional observations from a re-analysis of the deposited data

How the results depend on the processing

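Across 90 results and 448 recomputed values, 435 stayed within the limit set for them and 13 moved further. The limit was the spread between replicates, or 1.5 times for a count and for the median spread. The share of the 100 most abundant genes, the counts of expressed genes and of expressed Hox genes, and the median spread stayed within it. For the 65 family shares and the share of the 100 most abundant genes, much of this was fixed in advance. Rescaling a library leaves a share within it unchanged. Leaving out 1 of 3 libraries cannot move the mean share of a fixed set of genes by as much as its SD. These recomputed values therefore say nothing about how robust the shares are. The limit of 1.5 times is wide, and 30 expressed Hox genes of 39 could not rise past it. The counts therefore say little about robustness either. Leaving out members under 0.5 RPKM cannot lower a list's median, by construction. It raised the medians of 7 lists by more than the spread between replicates. These were ependymal cells (to 2.23 RPKM), meningeal fibroblasts (1.40), Schwann cells (4.28) and dorsal root ganglion neurons (0.787). The others were skeletal muscle (1.03), choroid plexus (0.681) and erythroid cells (62.7). The same filter moved the leading share of the vesicular glutamate transporters to 98.99%, of the hexokinases to 98.95% and of cytochrome oxidase 6a to 100%, by construction, since the members left out no longer enter the sum. No median could be given under it for border macrophages, adipocytes, lymphocytes and neutrophils, which had no member at 0.5 RPKM. Leaving out each replicate in turn gave medians of 1.96 to 2.15 RPKM for ependymal cells and 0.0303 to 0.0370 for lymphocytes. No paired analysis was possible because the description covers a single group and its replicate numbers only follow the order of the records. Values under the RPKM of 3 reads on 1 kb rest on few reads, and 3 libraries limit every SD.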

Other observations

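The 76 genes of cytosolic ribosomal proteins had a median of 173 RPKM (interquartile range 121 to 218), and 66 of them reached 100 RPKM. Rplp1 was highest at 633 RPKM. Rpl34 (6.94 RPKM) and Rpl30 (9.13 RPKM) were the 2 genes under 10 RPKM, chosen after their values were seen. Ribosomal protein genes have many near-identical processed copies, and how the deposited values share reads among copies is not given in the sources used here.

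The most abundant long noncoding RNAs were Meg3 (307, 330 and 342 RPKM), Snhg11 (289, 297 and 307), Rian (142, 136 and 133), Peg13 (95.7, 94.1 and 92.3), Malat1 (85.9, 76.9 and 89.97) and Ipw (63.6, 55.6 and 55.4). These 6 were the highest rows that RefSeq lists as long noncoding. Meg3 and Rian are maternally expressed RNAs of 1 imprinted locus, and Peg13 and Ipw belong to other imprinted loci. How many of the 328 expressed long noncoding RNA genes are imprinted was not counted, so no excess can be read from these names.

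The median length of the longest GENCODE M21 transcript was 2122.5 bases for the 100 most abundant genes, 3392.5 for genes at 10 to 100 RPKM, 3582 at 1 to 10 RPKM and 2139 under 1 RPKM, against 2937 over all rows. RPKM divides by length, so these values describe the gene models and not the number of reads.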
